A study of Mus musculus with 6 samples.

Results

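Ccl3, Ccl4 and Ccl5, the CC chemokines also called MIP-1α, MIP-1β and RANTES, and Ccr1, a receptor of these ligands, were followed through the leukocytes of the mouse kidney. These 4 genes were chosen by symbol out of the 32285 genes of the deposited feature lists. Live CD45+ cells, that is leukocytes, had been sorted from kidneys of C57BL/6J mice aged 8 weeks and sequenced by droplet-based 3' single-cell RNA sequencing. The series has 3 control libraries and 3 of acute kidney injury caused by rhabdomyolysis, in which damaged skeletal muscle releases its contents. The labels give neither the agent that caused the rhabdomyolysis nor the time of sampling. Whether each library is a separate animal is not stated either, so every p-value rests on library-to-library spread that could be technical only.

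Chemokines are small secreted proteins that direct the movement of leukocytes through G protein-coupled receptors. Ccl3 and Ccl4 are produced by activated macrophages, NK cells and T cells, and their genes are known targets of NF-kB, whereas Ccl5 is a stored or constitutive product of NK cells and memory or effector CD8 T cells. Ccr1 is carried mainly by myeloid cells and binds Ccl3 and Ccl5 well and Ccl4 weakly.

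The 3 ligand genes lie together on chromosome 11 in RefSeq's GRCm38.p6 annotation, Ccl5 at chr11:83525778-83530518, Ccl3 at chr11:83647843-83649378 and Ccl4 at chr11:83648624-83664683. The models of Ccl3 and Ccl4 overlap in that annotation. The counted features carry Ensembl identifiers. Their models and any use of strand in counting are not given in the sources used here. Reads in any overlap are thus uncertain. Ccr1 lies at chr9:123962126-123968692. RefSeq promoter windows were at hand for 2 of the 4 genes, Ccl3 and Ccr1, which are shown because both genes rose in macrophages and monocytes. The 250 bases before the annotated start are printed 5′ to 3′ on the gene's strand, which is the minus strand for both, from GRCm38.p6 chr11:83649379-83649628 and chr9:123968693-123968942. Capitals mark matches to any of 5 motifs searched on both strands.
Ccl3: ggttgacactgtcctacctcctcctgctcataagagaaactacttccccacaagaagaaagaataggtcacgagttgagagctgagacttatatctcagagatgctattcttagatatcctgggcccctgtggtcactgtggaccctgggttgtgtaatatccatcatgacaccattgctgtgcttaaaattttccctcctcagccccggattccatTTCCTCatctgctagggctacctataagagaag
Ccr1: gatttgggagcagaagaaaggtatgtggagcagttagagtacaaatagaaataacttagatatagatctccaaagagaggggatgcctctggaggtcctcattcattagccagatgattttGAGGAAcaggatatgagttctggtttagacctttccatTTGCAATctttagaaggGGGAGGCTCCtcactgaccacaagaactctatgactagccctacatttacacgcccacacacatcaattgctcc

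In the Ccl3 window the only match, 33 to 28 bases before the start on the opposite strand, was to the PU.1 core GAGGAA, which 23.3% of 32851 promoter windows of this length hold. The Ccr1 window held the NF-kB consensus 74 to 65 bases before the start (7.25% of windows), TTGCAAT, a C/EBP-type motif, 91 to 85 bases before it (1.96%), and GAGGAA 129 to 124 bases before it. The AP-1 motif TGANTCA (6.75% of windows) and the TATA box TATAAA (12.4%) were in neither window. A match describes these letters and does not show that a factor binds there.

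Cells were assigned to a class by the number of distinct markers with a unique molecular identifier (UMI) out of 8 per class, and none of the 4 genes is a marker. Deposited gene UMIs ranged from 10816727 to 22656666 per library, and 1501 to 4016 barcodes per library were called cells. Barcodes poor in Malat1, an abundant nuclear RNA, made up 13.2% to 26.1% of called cells in the control libraries and 29.1% to 57.8% in the rhabdomyolysis libraries, and were left out. T cells numbered 587 to 720 per control library and 85 to 130 per rhabdomyolysis library, and macrophages 1109 to 1871 and 520 to 797. NK cells numbered 55 to 88 and 16 to 100, classical monocytes 15 to 36 and 122 to 239, conventional dendritic cells 48 to 79 and 7 to 32, and neutrophils 8 to 11 and 103 to 142. Each class held 8 of its 8 markers in both groups, but the classical monocytes of the control libraries also carried dendritic cell markers at a summed 889.5 to 1243 counts per 1000000 UMIs of the class (CPM), against 76.9 to 129 in the rhabdomyolysis libraries. Their own markers summed to 2628 to 3395 CPM in controls and 11840 to 14270 after rhabdomyolysis, so this class did not hold like cells in both groups. Pairs of libraries shared at most 6 cell barcodes.

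Levels differed far more between classes than between libraries for Ccl5 and Ccr1. Ccl5 was highest in NK cells, at 12340 ± 2153 CPM (SD, n = 3) in controls, followed by T cells at 4059 ± 1120 CPM, and neither overlapped the next class in either group. Per UMI of the class, Ccr1 was highest in neutrophils, at 1091 ± 216 CPM in controls and 1232 ± 153 CPM after rhabdomyolysis. The next class, classical monocytes, overlapped them in neither group. Neutrophils were shallower, with median depths of 1734 to 2298 UMIs after rhabdomyolysis against 8536.5 to 9877 in monocytes. Positive neutrophils held a mean of 2.71 to 3.54 Ccr1 UMIs after rhabdomyolysis and positive monocytes 5.68 to 6.03. In controls these means were 2.67 to 3.1 and 2 to 2.83. B cells, which served as the background, held 0 to 74.7 CPM of Ccl5 and 0 to 45.8 CPM of Ccr1 in single libraries.

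For Ccl3 and Ccl4 the order of the classes was less sharp. Control macrophages had the highest mean Ccl3, 827 ± 391 CPM, but their libraries overlapped those of neutrophils, which overlapped NK cells, which in turn overlapped monocytes. T cells and dendritic cells lay lower, at 57.6 ± 11.9 and 40.4 ± 21.9 CPM, and overlapped each other. Ccl4 was highest in control macrophages, 1152 ± 417 CPM, and NK cells, 836 ± 70.1 CPM, whose libraries overlapped. After rhabdomyolysis the highest mean Ccl3 was in neutrophils, 1704 ± 859 CPM, followed by macrophages at 1552 ± 578 CPM. The highest mean Ccl4 was then in NK cells, 2837 ± 2476 CPM, followed by macrophages at 1746 ± 1039 CPM. In both cases the libraries overlapped.

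**Figure D1:**
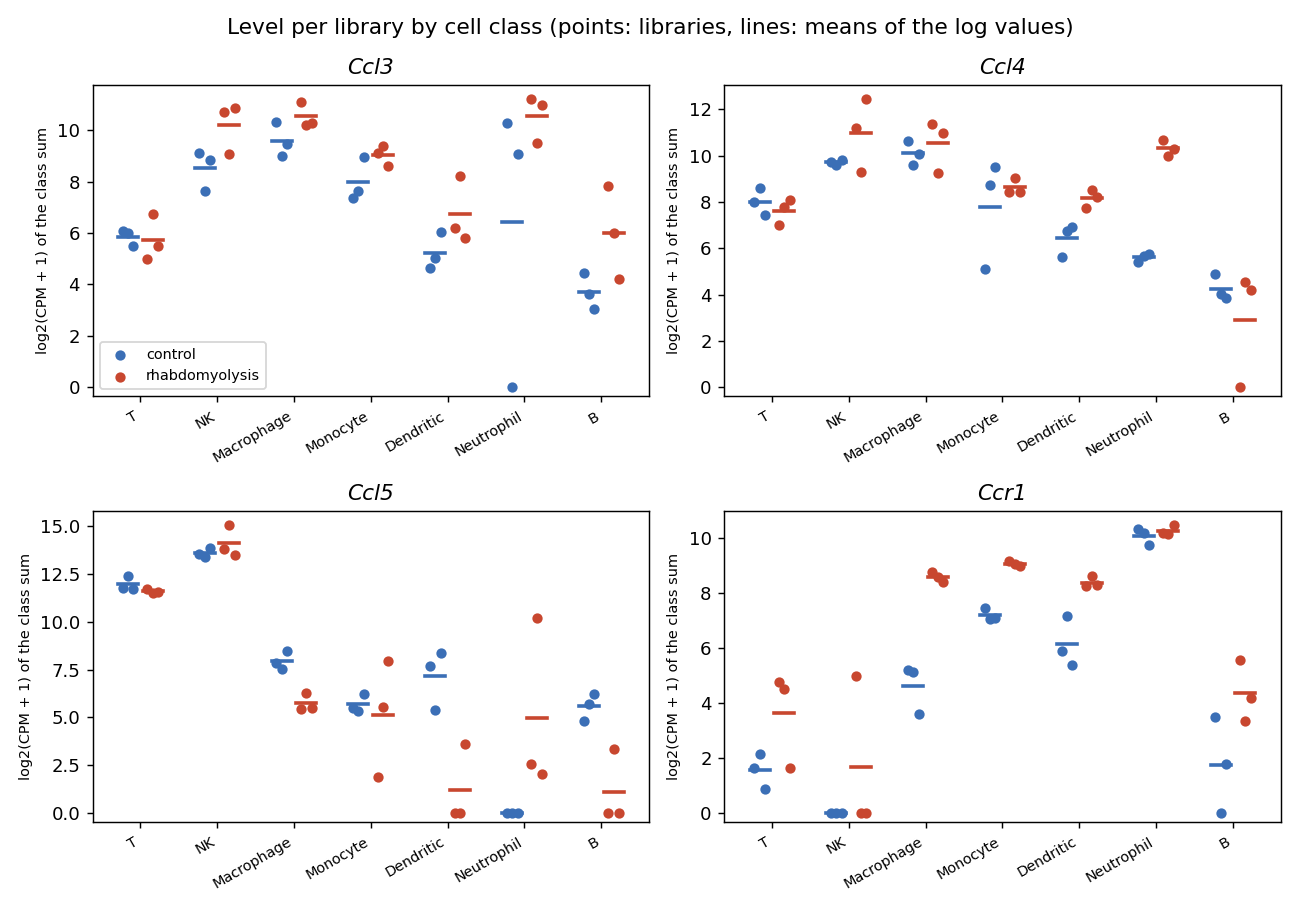
Level of each gene on the log2(CPM + 1) scale by cell class, with blue points for control and red points for rhabdomyolysis libraries and lines for the mean of the log values. Ccl5 is high in T and NK cells, Ccr1 in neutrophils and, after rhabdomyolysis, in all 3 of macrophages, monocytes and dendritic cells.

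Rhabdomyolysis libraries were compared with control libraries on counts summed per class by edgeR's quasi-likelihood test with Benjamini-Hochberg (BH) adjustment over all genes tested, and a gene was called at an adjusted p under 0.05. In the sum of all called cells, 4 of the 4 genes were called, where 45.9% of the 12155 genes tested were. In macrophages 3 of 4 were called, against 44.4% of genes, and in classical monocytes 2 of 4, against 16.4%. In NK cells 2 of the 3 that passed the filter on low counts were called, against 8.06%, and in T cells 0 of 3, against 9.4%, with 0 of 3 also at an unadjusted p under 0.05 and 0 of 3 by DESeq2. Dendritic cells and neutrophils had too few cells for the test as designed, and a fit on all 6 libraries with no minimum of cells, chosen after the data were seen, called 3 of 4 in dendritic cells, against 10.5%, and 1 of 3 in neutrophils, against 13.5%. With so many genes called in macrophages and in the sum of all cells, the counts there do not set the 4 genes apart. Ccl4 in neutrophils and Ccl5 in dendritic cells met the filter on low counts only through the group where each was high.

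**Figure D2:**
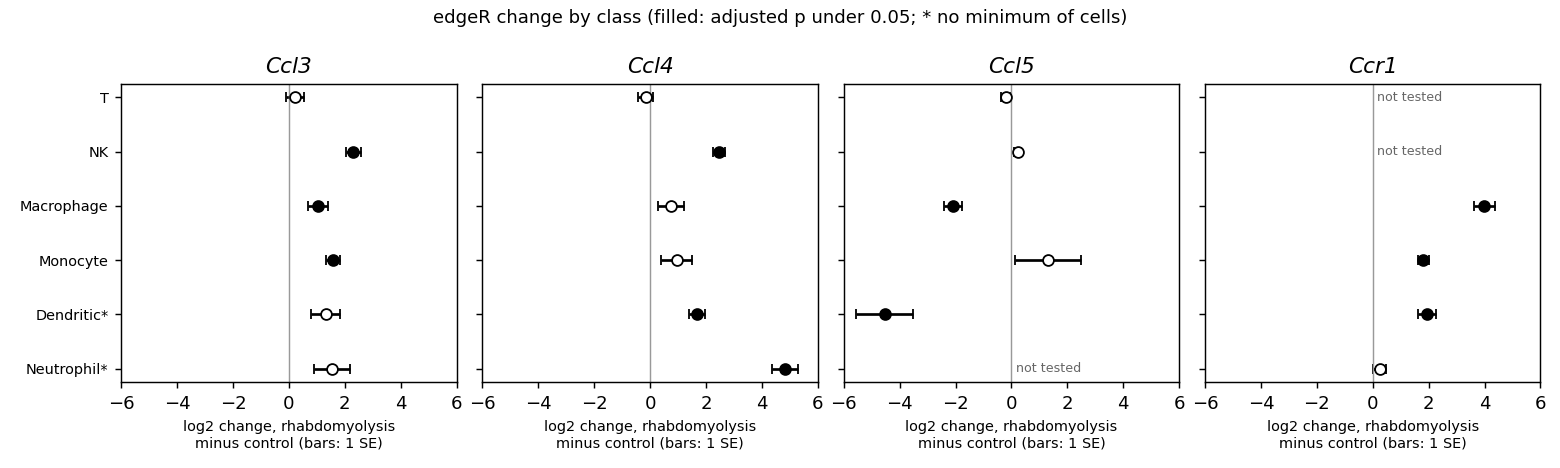
Log2 change of each gene, rhabdomyolysis minus control, by class, with bars of 1 standard error and filled points where the adjusted p is under 0.05. The asterisk marks classes fitted with no minimum of cells, and genes that did not pass the filter on low counts are written as not tested.

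Ccl3 rose in NK cells, classical monocytes and macrophages. In macrophages it stood at 1264, 509 and 708 CPM in control libraries 1, 2 and 3, and at 2219, 1194 and 1244 CPM in the rhabdomyolysis libraries. Control library 1 lay above the lower 2 rhabdomyolysis libraries, so the groups overlapped. The log2 change was 1.06 ± 0.36 (SE), a 2.08-fold rise, with an adjusted p of 0.0402 by edgeR. The call was lost without control library 2 (0.79, adjusted p = 0.13), control library 3 (1.05, 0.105) or rhabdomyolysis library 1 (0.74, 0.138).

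Macrophages held most Ccl3 UMIs in both groups, 83.2% to 92.1% in controls and 70.2% to 84.6% after rhabdomyolysis, while the share in classical monocytes was 0.447% to 1.53% and 5.78% to 14.6%. The monocyte and neutrophil shares include the larger numbers of those cells. Among macrophages thinned to 1500 UMIs each, 51.4%, 29.7% and 35.8% of cells held a Ccl3 UMI in controls and 68.7%, 42.6% and 46.1% after rhabdomyolysis, and these shares also overlapped (2-sided exact permutation p = 0.3). Unthinned, positive macrophages held a mean of 5.18 to 8.72 Ccl3 UMIs in control libraries and 14 to 21.2 in rhabdomyolysis libraries, with median depths per macrophage of 3647 to 4113 and 5151 to 7849 UMIs.

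In NK cells, Ccl3 was at 555, 196 and 456 CPM in controls and at 1680, 539 and 1863 CPM after rhabdomyolysis. Rhabdomyolysis library 2 had 16 NK cells, under the minimum of 20, and was left out of the fit, which gave a log2 change of 2.31 ± 0.26, a 4.96-fold rise (adjusted p = 1.17e-05, edgeR). With that library kept, its 539 CPM lay below control library 1, and the change was 1.97 (adjusted p = 0.0074), among 3.01% of genes called. Beside this result, the 8 macrophage markers summed to 78.8 to 246 CPM in control NK cells and 217 to 1695 CPM after rhabdomyolysis, with 8 and 7 of the 8 markers detected and Adgre1 at 0 in the latter. Neutrophil markers summed to 25.2 to 70.1 and 199.8 to 519 CPM. The part of such cells in the NK result was not tested. Free RNA of the droplets could account for 2.05% to 4.97% of Ccl3 UMIs in control NK cells and 0.409% to 6.23% after rhabdomyolysis.

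In classical monocytes, Ccl3 was at 165, 199.9 and 496 CPM in controls and at 553, 667 and 385 CPM after rhabdomyolysis. Control library 3, with 15 monocytes, was left out of the fit, which gave a log2 change of 1.59 ± 0.25, a 3.01-fold rise (adjusted p = 0.00082, edgeR). With it kept the groups overlapped and the log2 change was 0.95 (adjusted p = 0.0448, with 22.1% of genes called). The dendritic cell markers in the control monocytes moved with this result. So did macrophage markers in the monocytes, from 66.6 to 327 CPM in controls to 1735 to 2587 CPM after rhabdomyolysis, and neutrophil markers, from 14.8 to 16.9 CPM to 2455 to 5401 CPM. The part of these in the monocyte results was not tested. In T cells Ccl3 was at 44.1 to 66.2 CPM in controls and 30.6 to 104.9 CPM after rhabdomyolysis, and 20.7% to 100% of those UMIs could come from free RNA (log2 change 0.23 ± 0.32, adjusted p = 0.735, edgeR). Neutrophil Ccl3 was at 1238, 0 and 534 CPM in controls, from 8 to 11 cells each, and at 2355, 731 and 2025 CPM after rhabdomyolysis, a log2 change of 1.55 ± 0.63 that was not called (adjusted p = 0.127, edgeR).

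Ccl4 rose in NK cells and, in the fits with no minimum of cells, in neutrophils and dendritic cells. In NK cells it was at 845, 762 and 901 CPM in controls and at 2367, 629 and 5514 CPM after rhabdomyolysis. Rhabdomyolysis library 2, again left out of the fit for its 16 cells, lay below every control library and libraries 1 and 3 above. The log2 change was 2.46 ± 0.22, a 5.5-fold rise (adjusted p = 8.67e-07, edgeR), with an adjusted p of 0.0181 when all 6 libraries entered. A single NK cell held 92 of 155 Ccl4 UMIs in rhabdomyolysis library 1 and 707 of 2208 in library 3. The highest cell of control libraries 1, 2 and 3 held 36 of 268, 70 of 163 and 35 of 172. The part of single cells in this result was not tested. After thinning, 33.3% to 42% of control NK cells and 55%, 35.7% and 76.3% of those of rhabdomyolysis libraries 1, 2 and 3 held a Ccl4 UMI.

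Neutrophils held 1 Ccl4 UMI in each control library, 3 UMIs in 28 cells, and 331, 357 and 398 UMIs after rhabdomyolysis, in 103 to 142 cells per library. These are 41.3 to 53.4 CPM and 1007 to 1634 CPM, which did not overlap. Monocyte markers in the neutrophils moved with this result, from 82.5 to 534 CPM in controls to 5868 to 8399 CPM after rhabdomyolysis, and their part in it was not tested. The ratio of the pooled levels was 26.2, with an exact 95% counting interval of 8.92 to 127. The fit gave a log2 change of 4.83 ± 0.46 (adjusted p = 4.06e-05, edgeR). With 1 UMI per control library, Ccl4 met the filter on low counts through the rhabdomyolysis libraries alone. The adjusted p thus follows a selection on the group where Ccl4 was high and is no separate support for the rise. In rhabdomyolysis neutrophils, the tenth of cells with most Ccl4 held 74.6% to 92.4% of its UMIs. Dendritic cells had 48.9, 105 and 121 CPM in controls and 214, 370.3 and 299 CPM after rhabdomyolysis, with no overlap. The log2 change was 1.69 ± 0.28 (adjusted p = 0.000564, edgeR), on 47 cells in the rhabdomyolysis group. The rhabdomyolysis libraries held 15 UMIs in 1 of 8 cells, 25 in 3 of 7 and 108 in 9 of 32. Unthinned shares of positive cells overlapped, at 11%, 12.7% and 22.9% in controls and 12.5%, 42.9% and 28.1% after rhabdomyolysis. Free RNA could account for 31.1% to 100% of the control UMIs and 0% to 27.2% of the others. Beside this, the 8 dendritic cell markers in the class summed to 2071 to 2459 CPM in controls and 666 to 1086 CPM after rhabdomyolysis. Monocyte markers in the class summed to 1011 to 1092 and 1971 to 2073 CPM. The part of this shift in the dendritic cell results was not tested.

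In macrophages, Ccl4 was at 1601, 777 and 1078 CPM in controls and 2638, 605 and 1994 CPM after rhabdomyolysis. Rhabdomyolysis library 2 lay below all controls and libraries 1 and 3 above, and the log2 change of 0.74 ± 0.47 was not called (adjusted p = 0.231, edgeR). Without that library it was 1.22 (adjusted p = 0.00114). The same library was low for Ccl4 in the thinned shares, 20.5% of macrophages against 57.5% and 52.1% in the other 2. In monocytes the control values ran from 33.7 to 718 CPM and enclosed the 338.8 to 530 CPM after rhabdomyolysis. The 718 CPM were those of control library 3, which was left out of the fit that gave a log2 change of 0.95 ± 0.56 (adjusted p = 0.282, edgeR), and all 6 libraries gave 0.12 (adjusted p = 0.909). Without control library 2 it was called as a rise (adjusted p = 0.000813), on control library 1 alone with its 10 UMIs and taken to vary like the other libraries. In T cells Ccl4 was at 255, 382 and 170 CPM in controls and 127, 222 and 267 CPM after rhabdomyolysis, a log2 change of -0.16 ± 0.28 (adjusted p = 0.798, edgeR).

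Over the sum of all called cells, Ccl3 was at 725, 314 and 429 CPM in controls and 1639, 912 and 849 CPM after rhabdomyolysis (log2 change 1.52 ± 0.35, adjusted p = 0.00699, edgeR). Ccl4 was at 951, 545 and 685 CPM and at 1861, 585 and 1377 CPM (1.11 ± 0.38, adjusted p = 0.0395). The Ccl4 call was lost without any 1 of control libraries 1, 2 and 3 or rhabdomyolysis libraries 1 and 3, at log2 changes of 0.69 to 1.33 and adjusted p of 0.0504 to 0.178. In such sums more cells of a class and more RNA per cell cannot be told apart.

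Ccl3 and Ccl4 were often in the same cells. In macrophages thinned to 1500 UMIs, 72.7%, 61.2% and 68% of Ccl3-positive cells held a Ccl4 UMI in controls, against 30.3%, 26% and 24.7% of Ccl3-negative cells. After rhabdomyolysis the shares were 72%, 35.2% and 79.5% against 25.5%, 9.58% and 28.8%. The share was higher in Ccl3-positive cells in 6 of 6 libraries. Ccr1 showed no such excess, with 36.9%, 33.6% and 29.8% of Ccl3-positive and 44.4%, 36.2% and 32.1% of Ccl3-negative macrophages positive after rhabdomyolysis. Cells of a library are not replicates, and no test was made of these shares.

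**Figure D3:**
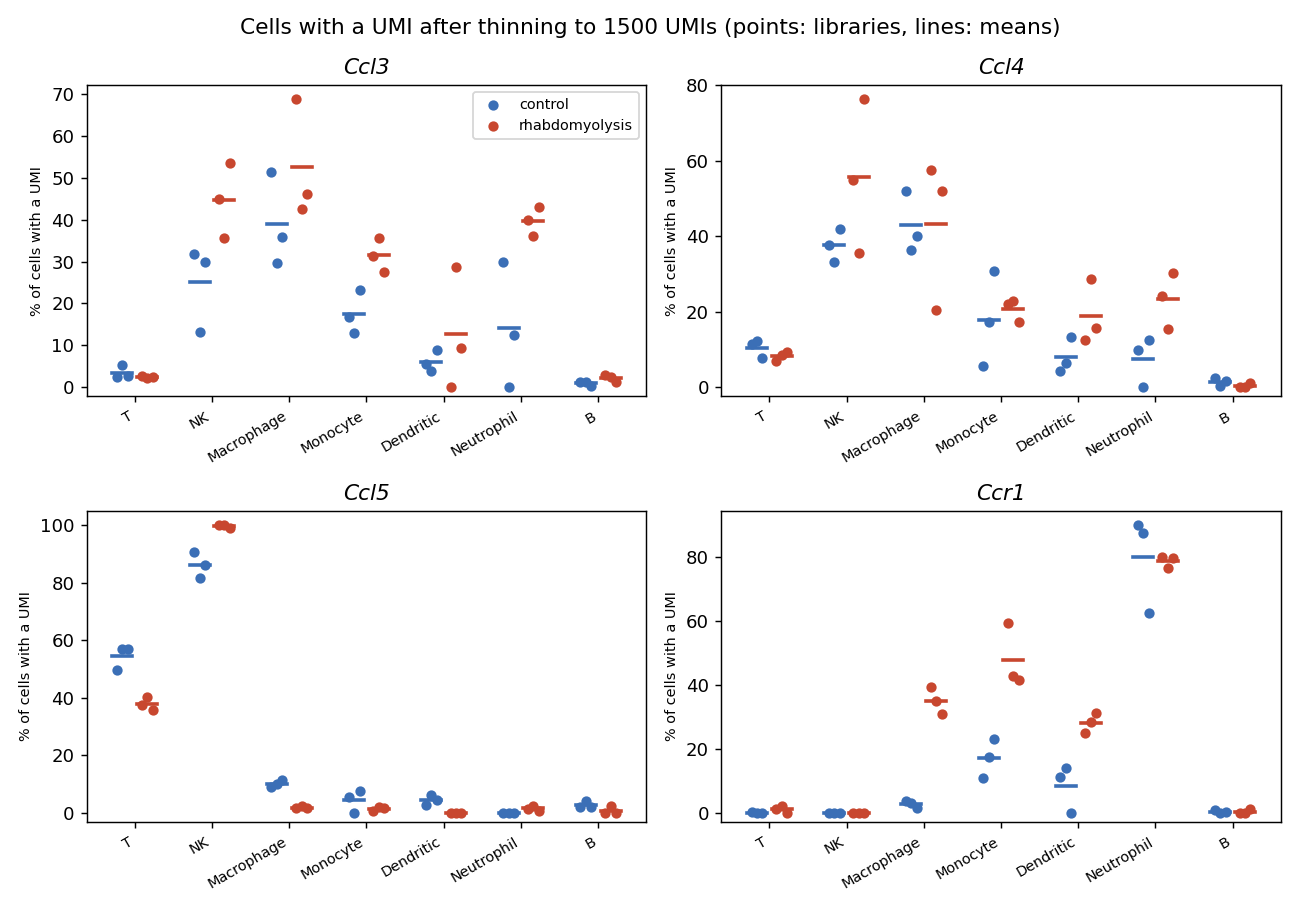
Percent of cells with at least 1 UMI of each gene after every cell was thinned to 1500 UMIs, by class, with points for libraries and lines for their means. Ccr1-positive macrophages lie between 1.61% and 3.8% in controls and between 31.1% and 39.3% after rhabdomyolysis, and B cells show the background.

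Ccl5 fell in the sum of all called cells, from 1143, 1418 and 1319 CPM to 319, 394 and 624 CPM, without overlap (log2 change -1.25 ± 0.22, adjusted p = 0.00189, edgeR). This sum leaves out Malat1-poor barcodes. Of the cells in it, T cells were 720 of 3487, 587 of 2862 and 610 of 2282 in controls. After rhabdomyolysis T cells were 85 of 1014, 99 of 1534 and 130 of 1538. They held 57.6% to 71.5% of Ccl5 UMIs in controls and 20.7% to 38.2% after rhabdomyolysis, while NK cells held 13% to 21.8% and 31% to 64.3%. Within either class, the level per UMI was not called as different. On simulated data the T cell fit recovered 16% and the NK cell fit 17% of genes changed 2-fold. In T cells it was 3443, 5352 and 3383 CPM against 3404, 2921 and 3046 CPM, with a log2 change of -0.21 ± 0.16 (adjusted p = 0.494, edgeR). NK cells held 11840, 10480 and 14700 CPM against 14140, 33860 and 11320 CPM, with a log2 change of 0.22 ± 0.12 (adjusted p = 0.308) without rhabdomyolysis library 2 and 0.77 ± 0.26 (adjusted p = 0.116) with it.

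**Figure D4:**
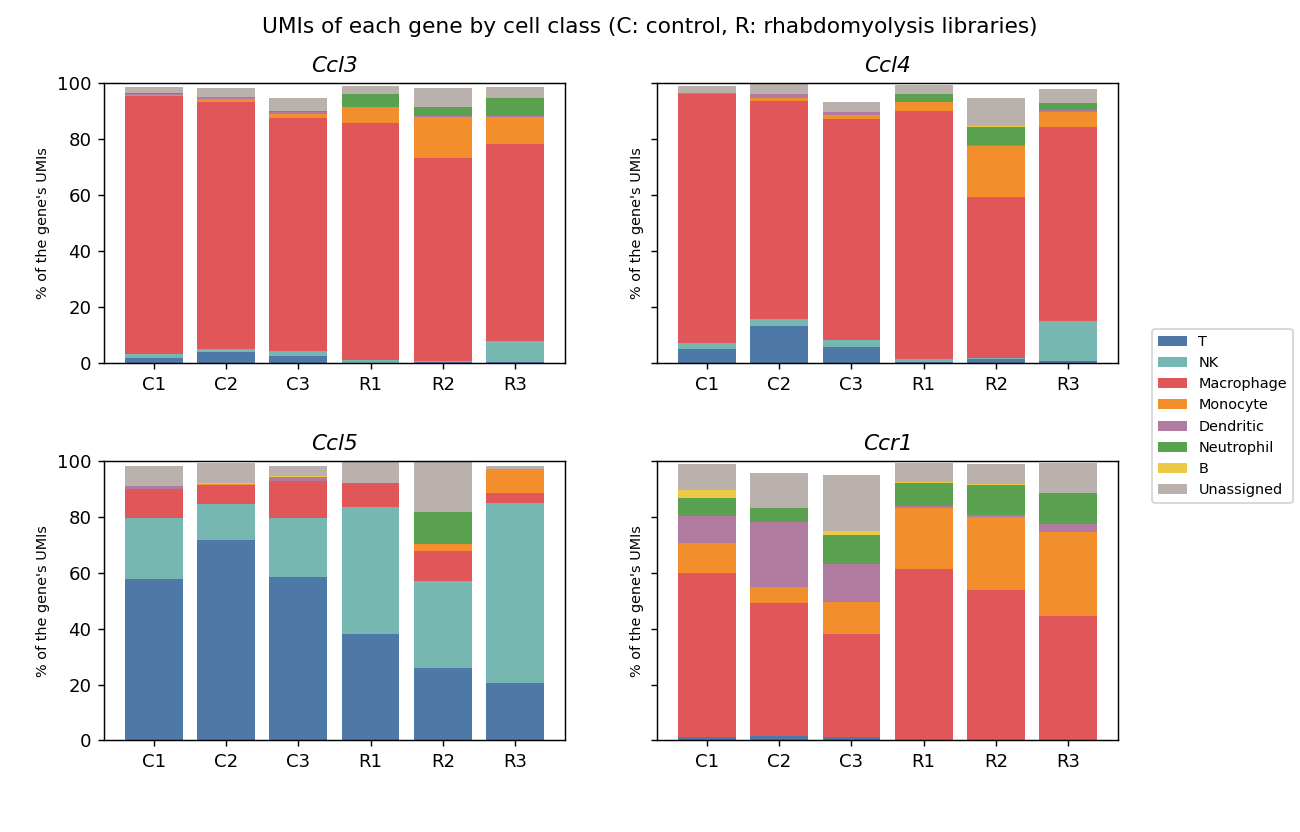
Percent of each gene's UMIs that lies in each cell class, by library, over called cells without Malat1-poor barcodes, with C1 to C3 for control and R1 to R3 for rhabdomyolysis libraries. Bars stop short of 100% where other classes hold the rest. Macrophages hold most Ccl3 and Ccl4, and the T cell share of Ccl5 is 57.6% to 71.5% in controls and 20.7% to 38.2% after rhabdomyolysis.

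The share of T cells with a Ccl5 UMI did separate the groups. After thinning it was 49.8%, 56.9% and 57.1% in controls and 37.5%, 40.4% and 35.9% after rhabdomyolysis, with 88 of 1917 and 31 of 314 cells left out as too shallow. A 2-sided exact permutation test gave p = 0.1, which is the lowest value this design can reach. T cell markers of these cells summed to 8142 to 8739 CPM in controls and 3751 to 5467 CPM after rhabdomyolysis, and the part of this in the result was not tested. Unthinned, the means were 59.7% and 40.1%, and in B cells 4.4% and 0.749%. Free RNA was expected to give 199, 177 and 168 Ccl5 UMIs in the 720, 587 and 610 control T cells. After rhabdomyolysis it was expected to give 6.93, 4.22 and 14.1 UMIs in 85, 99 and 130 cells. The part of free RNA in the share of positive cells was not tested. In T cells with a Cd8a or Cd8b1 UMI and no Cd4 UMI, a subset examined after these values were seen, Ccl5 was at 9062, 12600 and 9930 CPM in controls and 5878, 4815 and 4978 CPM after rhabdomyolysis. These groups did not overlap, and the log2 change was -0.85 (adjusted p = 0.000737, edgeR), among 7.21% of genes called in that subset. It rests on 20, 35 and 40 cells in the rhabdomyolysis libraries. The subset made up 17.5% to 32% of control T cells and 23.5% to 35.4% of the others. T cells with a Cd4 UMI and no CD8 UMI held 1386, 1111 and 1760 CPM of Ccl5 in controls. After rhabdomyolysis they held 658, 380.5 and 51.8 CPM, from 7, 11 and 15 cells. Those with neither, the largest subset in every library, held 1433, 1942 and 1972 CPM against 2583, 1928 and 2314 CPM. The changes in these other subsets were not tested.

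In macrophages the Ccl5 signal was low and fell, from 224, 182 and 348 CPM in controls to 42, 76.6 and 43.8 CPM after rhabdomyolysis (log2 change -2.09 ± 0.32, adjusted p = 0.00122, edgeR). Cells with a UMI of any T or NK marker held 34.9% to 46% of it in controls and 44% to 86.5% after rhabdomyolysis. Without those cells it was at 136, 130.3 and 233 CPM against 24.5, 26.7 and 6.23 CPM, a log2 change of -3.01 ± 0.48 (adjusted p = 0.00136, with 43.9% of genes called). Free RNA held 973 to 1371 CPM of Ccl5 in controls and 344 to 460 CPM after rhabdomyolysis. An upper estimate of free RNA in macrophages, from T cell, B cell and tubule markers, expected 2430, 2630 and 1760 Ccl5 UMIs where 1790, 1207 and 1795 were counted in controls, and 239, 336 and 450 where 168, 394 and 237 were counted after rhabdomyolysis. After its subtraction Ccl5 no longer passed the filter and gave no value. In control macrophages 13.7% to 18.4% of cells held a Ccl5 UMI, and the tenth of cells with most Ccl5 held 92.6% to 96.1% of its UMIs. Control B cells, with 27.2 to 74.7 CPM, held less.

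In some libraries, 1 cell held most of the Ccl5 counts of another myeloid class. In rhabdomyolysis library 3, 1 monocyte held 508 of 602 Ccl5 UMIs, and in rhabdomyolysis library 2, 1 neutrophil held 416 of 419. Both carried 1 T or NK marker. Monocyte Ccl5 was not called (log2 change 1.31 ± 1.19, adjusted p = 0.512, edgeR) and took the other sign without such cells (-0.86, adjusted p = 0.566, with 14% of genes called). In control dendritic cells, 1 cell each held 140 of 163 and 147 of 172 UMIs in libraries 1 and 3, without a T or NK marker. Dendritic Ccl5 was at 204, 41.1 and 329.9 CPM in controls and 0, 0 and 11.1 CPM after rhabdomyolysis, on 4 UMIs in the latter. It was called lower (log2 change -4.52 ± 1.02, adjusted p = 0.00646, edgeR), and the call was lost without rhabdomyolysis library 3 (adjusted p = 0.143). Ccl5 met the filter on low counts through the control libraries alone, so the adjusted p is no separate support for the fall. The part of those single control cells in it was not tested. Neutrophils of the controls held 0 UMIs in 28 cells, which allows a share of up to 10.7% of cells with a UMI.

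Ccr1 rose in macrophages, classical monocytes and dendritic cells, and in neutrophils it was high in both groups. In macrophages it was at 35.2, 33.8 and 11.1 CPM in controls and 432, 385 and 332 CPM after rhabdomyolysis. No libraries overlapped, and the log2 change was 3.98 ± 0.38, a 15.8-fold rise (adjusted p = 0.00014, edgeR, with 44.4% of genes called). For this and the other results without overlap, the share of all genes that did not overlap is not given here. After thinning, 3.8%, 3.18% and 1.61% of control macrophages and 39.3%, 35.1% and 31.1% after rhabdomyolysis held a Ccr1 UMI. The shares of B cells were 0% to 0.952% and 0% to 1.19%, and unthinned macrophage means were 6.93% and 68.1%.

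Free RNA held 7.48 to 21.2 CPM of Ccr1 in controls and 155 to 190 CPM after rhabdomyolysis, and could account for 17.6% to 19% and 6.68% to 9.28% of the macrophage UMIs. After its subtraction the log2 change was 3.96 (adjusted p = 9.26e-05). Monocyte markers in the macrophage class summed to 365 to 528 CPM in controls and 996.5 to 1664 CPM after rhabdomyolysis, with 8 of 8 detected in both groups. Macrophage markers summed to 21270 to 23550 and 15000 to 19820 CPM. The part of this shift in the Ccr1 result was not tested.

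In classical monocytes, Ccr1 was at 172, 129.9 and 133 CPM in controls and 565, 527 and 498 CPM after rhabdomyolysis, without overlap. The log2 change was 1.82 ± 0.20, a 3.52-fold rise (adjusted p = 4.23e-05, edgeR, without control library 3), and 1.80 with all 6 libraries. The change in monocytes minus that in macrophages was -1.52 ± 0.32 on the log2 scale (adjusted p = 0.00436, edgeR interaction with the library as a block, 4.9% of genes called), though that call was lost without control library 1 (-1.23, adjusted p = 0.306). Dendritic cells had 57.7, 141 and 40.3 CPM in controls and 300, 385 and 313 CPM after rhabdomyolysis, a log2 change of 1.95 ± 0.33 (adjusted p = 0.000572, edgeR, with no minimum of cells), beside the marker shift given for Ccl4. In neutrophils the values were 1280, 1139 and 855 CPM against 1165, 1123 and 1407 CPM, a log2 change of 0.25 ± 0.23 (adjusted p = 0.554, edgeR), and 80% and 78.9% of thinned cells were positive on average.

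Lymphocytes held little Ccr1. Control NK cells had 0 UMIs in 206 cells, which allows a share of up to 1.46% of cells with a UMI, and 2 UMIs were found in NK cells after rhabdomyolysis. T cells had 2 to 8 UMIs per control library and 1 to 7 per rhabdomyolysis library. In neither class did Ccr1 pass the filter on low counts, and 33% to 100% of the T cell UMIs could come from free RNA.

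Between classes, the changes of Ccl3 and Ccl4 in NK cells exceeded those in T cells by 2.24 ± 0.50 and 2.44 ± 0.69 on the log2 scale, which was not called in the fit over classes (adjusted p = 0.0607 and 0.267, edgeR interaction, 0.163% of genes called). The Ccl5 change in macrophages minus that in T cells was -1.94 ± 0.62 (adjusted p = 0.0251, 20.3% of genes called), a contrast added after the data were seen. That call was lost without control library 1 (adjusted p = 0.0705) or control library 3 (0.121).

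Of the other CC chemokine ligands, 10 of 15 were tested in macrophages, of which 5 rose and 1 fell, with a median log2 change of 1.49 against -0.05 over all genes, of which 44.4% were called. Ccl2 and Ccl7, ligands of the monocyte receptor Ccr2, were among those that rose, Ccl2 from 96.9 ± 39.4 to 2008 ± 422 CPM, and Ccl7 by 5.25 ± 0.56 on the log2 scale. In classical monocytes 5 of 6 tested rose and 1 fell, where 16.4% of all genes were called, and Ccl7 went from 0 CPM in every control library of the fit to 444 ± 159 CPM. Of the other receptors, 3 of 12 were tested in macrophages. Ccrl2, an atypical receptor, rose from 41.1 ± 5.90 to 175 ± 87.7 CPM and Ccr2, itself one of the monocyte markers of the gate, fell from 338 ± 71.2 to 145 ± 46.6 CPM.

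Genes of NF-kB feedback and inflammation rose in 10 and fell in 4 of 20 tested in macrophages, with a median log2 change of 0.74. Of all genes, 44.4% were called in macrophages, 8.06% in NK cells and 9.4% in T cells, which is the background for the counts of the lists. Cxcl2, a neutrophil chemoattractant, went from 88.9 ± 29.2 to 5497 ± 2585 CPM in macrophages. In NK cells 4 of 8 tested rose and 0 fell. Among those that rose were Cxcl2, from 1.05 ± 1.82 to 433 ± 483 CPM, and Nfkbia, the NF-kB inhibitor, from 169 ± 37.7 to 727 ± 202 CPM. Beside this stand the macrophage markers in NK cells given for Ccl3, whose part in these counts was not tested. The NK cell counts rest on 2 rhabdomyolysis libraries, and with all 6 libraries 1 of 5 tested rose. In T cells, where Ccl3 and Ccl4 were not called, 13 of 17 rose and 0 fell. Of the cytotoxic and effector genes, 3 rose and 2 fell of 17 tested in NK cells, with Gzmb, a granzyme, from 396 ± 178 to 1191 ± 325 CPM, and 1 rose and 8 fell of 17 in T cells. Of 15 immediate early and dissociation genes, which also respond to tissue digestion, 6 rose and 3 fell in macrophages, and the heat shock gene Hspa1a fell from 2175 ± 1313 to 128 ± 59.2 CPM.

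Over 26 class and library sums of T cells, NK cells, macrophages, classical monocytes and dendritic cells, the pattern of Ccl3 on the log2(CPM + 1) scale was most like that of Ccl4 (Pearson r = 0.833), among 3313 genes. Next came Snx18 (0.809) and Pacsin2 (0.788). For Ccl5 the nearest were AW112010 (0.936) and Nkg7, a granule protein of cytotoxic cells (0.935), and for Ccr1 they were Trib1 (0.955) and Cfp, properdin (0.951). Ccl5 and Ccr1 ran opposite, with r = -0.881. Sums of 1 library share its depth and free RNA, and these values are descriptions.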

How the data were processed

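The authors deposited unfiltered matrices of UMI counts per gene and barcode, written by Cell Ranger 4 per the file headers, with build mm10 per the submitters' processing notes. Members, lists and tests were chosen with earlier results of these data known. Barcodes with at least 500 UMIs, 200 genes and at most 15% mitochondrial UMIs were kept where a Monte Carlo test (10000 draws, barcodes thinned to at most 3000 UMIs, adjusted p of at most 0.001) told them from free RNA, profiled in barcodes with 100 or fewer UMIs. Barcodes with Malat1 under 0.1% of UMIs were left out. A cell went to the class with most of 8 markers, given at least 2 and a margin of 1. This gate was adopted for its cell numbers after 4 settings had been tried and levels of the 4 genes under the gate with 3 markers and a margin of 2 had been seen. No doublet caller was run, and cells in which 2 classes had equal numbers of markers stayed unassigned. Counts were summed per class and library, a class sum of fewer than 20 cells did not enter a fit, and edgeR 4.0.16 (quasi-likelihood, TMM, filterByExpr, BH) gave changes, with DESeq2 1.42.0 as an alternative. Each SE comes from the log2 change and its F statistic. The fits with no minimum of cells, used for dendritic cells and neutrophils, the CD8 subset, the cells without T or NK markers and the contrast of macrophages with T cells were chosen after the data were seen. Intervals on counts cover counting error only. The 4 genes were named in every class, and of each list the 2 called genes with the largest rise and the 2 with the largest fall could be named, given no overlap of the groups and an average log2 CPM of at least 5. Tested on simulated data, the macrophage fit recovered 93% of genes changed 4-fold and 50% of those changed 2-fold, out of 200 changed among 10611 genes. Recovery was 81% and 16% in T cells, 68% and 17% in NK cells and 59% and 7% in classical monocytes. A 2-fold change would thus mostly be missed in these 3 classes. The 6 antibody tags were not used. Python 3.11.15, numpy 2.4.6, scipy 1.17.1 and R 4.3.3 were used.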

Additional observations from a re-analysis of the deposited data

Results flagged for a closer look

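Changes of 3 kinds were called as different between classes by a test of the difference itself (edgeR interaction, blocked by library). Each of the 3 lost its call when a single library was left out. The log2 change of Ccl5 in classical monocytes minus that in macrophages was 3.29 (SE 0.97, adjusted p = 0.044). In rhabdomyolysis library 3, 1 monocyte held 508 of 602 Ccl5 UMIs, and the part of that cell in the difference was not tested. Without that library the difference was 1.37 (adjusted p = 0.239, edgeR interaction). It was not called without control library 1, 2 or 3 either (adjusted p of 0.28, 0.173 and 0.0722). The log2 change of Ccr1 in classical monocytes minus that in macrophages was -1.52 (SE 0.32, adjusted p = 0.00436). Ccr1 started from 129.9 to 172 CPM in control monocytes and 11.1 to 35.2 CPM in control macrophages. The call was lost without control library 1 (-1.23), and the monocyte class did not hold like cells in both groups. The log2 change of Ccl5 in macrophages minus that in T cells was -1.94 (SE 0.62, adjusted p = 0.0251), with the macrophage counts at or below the upper estimate of free RNA in 4 of 6 libraries. That call was lost without control library 1 or control library 3.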

How the results depend on the processing

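Of the recomputed values, 437 kept their direction and their side of the threshold or stayed within 1.5 times of a count, 24 counts moved further, 20 values lost a call, 20 gained one and 12 changed sign. Ccr1 in macrophages, monocytes, dendritic cells and the sum of all cells, Ccl3 and Ccl4 in NK cells and Ccl5 in the sum of all cells kept their call under every alternative that gave a value. Where leaving out a library left 1 NK cell or monocyte library in a group, that library was taken to vary like the others, so these fits are no check on the spread of that group. The causes of the changes that follow were not tested, except that fewer samples enter when a library is left out.

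Leaving out 1 library at a time, Ccl4 in the sum of all cells ran from 0.69 to 1.46 (log2). In T cells 478 to 788 genes were called (767 with all libraries), and Ccl3 ran from -0.42 to 0.49, Ccl4 from -0.44 to 0.17 and Ccl5 from -0.32 to 0.050. In NK cells 115 to 387 genes were called (276 in the reported fit), in classical monocytes 411 to 1286 (1210), in dendritic cells 208 to 452 (455) and in neutrophils 84 to 135 (204). Macrophage Ccl3 ran from 0.74 to 1.47 and Ccl4 from 0.34 to 1.22. Monocyte Ccl4 ran from 0.0047 to 3.603 and Ccl5 from -0.70 to 1.82. Dendritic Ccl3 ran from 0.59 to 2.21, called without control library 3 or rhabdomyolysis library 3, and Ccl5 from -9.38 to -3.97. Neutrophil Ccl3 ran from 1.13 to 3.001, called without rhabdomyolysis library 2. The difference of monocytes and macrophages ran from -0.60 to 3.48 for Ccl4, 1.37 to 4.07 for Ccl5 and -1.79 to -1.23 for Ccr1. That of NK and T cells ran from 1.48 to 2.78 for Ccl3, 1.55 to 2.81 for Ccl4 and -2.13 to 5.06 for Ccr1. The Ccl3 difference of NK and T cells was called without control library 1 or 3 or rhabdomyolysis library 1 or 2, and the Ccl4 difference without rhabdomyolysis library 1 or 2. That of macrophages and T cells ran from 0.50 to 1.43 for Ccl3 and -2.37 to -1.42 for Ccl5.

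With Malat1-poor barcodes kept, Ccl4 in the sum of all cells (0.97) and Ccl3 in macrophages (0.85) lost their calls. Without the 5% of cells with most UMIs, Ccl4 lost its call in the sum of all cells (1.08) and in dendritic cells (0.65), T cell Ccl3 took the other sign (-0.73), and 217 genes were called in dendritic cells. With the stricter gate T cell Ccl4 was 0.13 and 129 genes were called in dendritic cells. DESeq2 called 113 genes in NK cells and 262 in dendritic cells. With no filter on low counts, monocyte Ccl4 (1.09) and Ccl5 (1.45), dendritic Ccl3 (1.25) and neutrophil Ccl3 (2.09) were called. With free RNA subtracted, 49 genes were called in neutrophils, and Ccl5 in macrophages and Ccl3 and Ccl5 in dendritic cells gave no value. With no minimum of cells, 89 genes were called in NK cells. Monocyte Ccl5 was -0.86 without cells that held a T or NK marker, and T cell Ccl5 was -0.85 in CD8 cells.

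The labels do not say that numbers mark shared animals or days, so the numbers were not taken as pairs. Same-numbered libraries shared deviations with r from -0.0459 to 0.162 over genes. Differently numbered libraries were not compared in this way, so these values do not show whether pairing is absent. With the replicate block, 39 genes were called in NK cells, monocyte Ccl4 (1.32) and neutrophil Ccl3 (1.78) gained a call, monocyte Ccl5 turned to -1.06, and no other call of the 4 genes changed. Not run were the stricter gate for NK cells and monocytes, monocytes without the deepest cells, free RNA subtraction for the sum of all cells, and the contrast of dendritic cells with macrophages. The neutrophil and dendritic cell results rest on few cells, with 28 control neutrophils and 47 dendritic cells after rhabdomyolysis.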
